A study of Rattus norvegicus with 8 samples.

Results

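The genes described are 10 members of the gp130 cytokine pathway, namely the ligands Il6, Lif and Cntf, the receptor chains Il6r, Il6st and Osmr, the kinase Jak2, the transcription factor Stat3 and the inhibitors Socs2 and Socs3. They were taken as every non-control spot that carries one of these names, which gave 49 spots of 13 probes, and they are 10 of the 35250 gene names on the array. Their RNA was measured in the dentate gyrus (DG) of 8 ovariectomized (OVX) adult female Sprague-Dawley rats that all went through status epilepticus (SE), a prolonged seizure. Of these, 4 had received oil (COS) and 4 had received estradiol (CES). The question is whether the pathway's genes differed in level between oil-injected and E2-replaced rats after SE.

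According to the sample records, rats of 150 to 200 g were ovariectomized 1 week before hormone replacement, SE was started in both groups with 16 mg/kg of kainic acid and pentobarbital ended it after 5 h. CES rats were given 4 doses of 2 μg of estradiol a day apart, of which 2 preceded and 2 followed SE. The study's methods describe another dose of kainic acid, another agent to end SE and another schedule, and nothing in the deposited data decides between the accounts. The methods also give differing times of tissue collection, so the time from SE to sampling is not settled here. Rats without SE were not analysed here, so a difference between COS and CES has no seizure-free level to be read against.

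Cytokines of the interleukin-6 family bind receptors that share the signalling chain gp130, which the gene Il6st encodes. Ligand binding activates Janus kinases such as Jak2, these phosphorylate Stat3, and phosphorylated Stat3 enters the nucleus and raises its target genes. Among these targets is Socs3, whose protein binds the receptor complex and shuts the signal down, so the level of Socs3 RNA is widely used as a readout of the pathway. In brain the pathway is known for driving the reactive state of astrocytes after injury, and Lif and Cntf are known for supporting neurons and glia.

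Each array channel held 1 rat, and each of the 4 arrays on the single slide held 2 rats of the same group, 1 in Cy3 (replicates 1 and 3) and 1 in Cy5 (replicates 2 and 4). A spot counted as valid where foreground reached 2 times the background around it. Of 43379 spots per channel, 32381 to 38553 were valid in COS rats and 30690 to 35352 in CES rats. A level is the log2 of a gene's background-subtracted signal relative to the median over the valid spots of its channel, so 0 is that median and a step of 1 is a doubling. Levels are comparable between rats for 1 gene and not between genes, since probes differ in how they hybridise.

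Stated before the results, CES replicate 2 stood apart. Over all genes its log2 levels had a mean correlation of 0.979 with the COS rats and 0.960 with the other CES rats, whereas the other 3 CES rats ranged from 0.935 to 0.941 with COS. It was the highest of the CES rats in 45.7% of the 6054 genes called lower in CES, and it is kept with its label. The counts and the differences of the called genes, apart from Ccl2, are therefore also given without it.

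The tissue carried markers of the DG only in part. C1ql2, a granule cell gene, was measured in all rats, at 2.75 to 3.58 in COS and 1.70 to 2.83 in CES, while Prox1, which defines granule cells, was well above background in 0 rats. The summed linear level of the 4 granule cell markers that could be quantified, of 5, ran from 12.6 to 22.3 in COS and from 8.80 to 12.8 in CES. That of the 3 markers of pyramidal cells of the neighbouring CA fields ran from 4.36 to 5.93 in COS and from 7.21 to 18.9 in CES. Ttr, a choroid plexus gene, varied between 3.57 and 9.22 over the rats of both groups. In whole tissue, fewer cells of a type cannot be told apart from less RNA per cell, and the part of cell makeup in the differences below was not tested.

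Probes of 5 members are shown because they say which stretch of transcript was read, in particular where a probe joins separate stretches of the genome. The probes of Cntf and Jak2 and the Stat3 probe with 10 of the 11 spots, which carries most of the Stat3 value, are not shown. Each probe shown has 60 bases, is written 5′ to 3′ as the array files list it, and has its position on rn4 in those files. No annotation of that build was used here, so exons and untranslated regions were not assigned. The Il6 probe lies at chr4:457279-458563, the Osmr probe at chr2:56081199-56081943 and the Stat3 probe shown at chr10:89823819-89824169, all on the minus strand. These spans of 1285, 745 and 351 bases are longer than the probes, as for a probe laid across a splice junction. The Il6st probe shown lies at chr2:43833273-43833332 on the plus strand and the Socs3 probe at chr10:107958703-107958762 on the minus strand.
Il6: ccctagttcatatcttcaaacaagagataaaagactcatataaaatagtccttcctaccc
Il6st: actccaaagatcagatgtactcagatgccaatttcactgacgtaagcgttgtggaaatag
Osmr: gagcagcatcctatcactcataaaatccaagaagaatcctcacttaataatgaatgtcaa
Stat3: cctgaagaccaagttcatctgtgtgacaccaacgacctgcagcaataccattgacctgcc
Socs3: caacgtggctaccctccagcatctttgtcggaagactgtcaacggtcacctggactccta

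Of the 10 members, 9 had a spot that was valid in all 8 rats and could be compared. The level of 5 of them was lower in CES than in COS by limma (Stat3, Socs3, Jak2, Cntf and Il6st), 0 were higher, and 4 were not called (Il6, Lif, Il6r and Socs2). Over all genes the same fit called 28.3% of 21372 genes lower and 5.79% higher in CES, so 5 of 9 is read against a background in which lower calls were common. The median difference of the 9 members, CES minus COS, was −0.87 on the log2 scale, against −0.25 over all genes, and 8 of the 9 lay below the all-gene median. Averaged over their spots, 5 of the 9 members, the same 5 that were called, had 4 CES values below all 4 COS values. Over all genes, called or not, this held for 19.8%, and values were higher without overlap in 1.61%.

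The number of members called rested on the rats and the scaling. It was 0 without COS replicate 3, 2 without CES replicate 1 (Stat3 and Socs3) and 7 without CES replicate 2. Lower calls over all 21372 genes moved the same way, from 6054 to 932, 2493 and 7002. Loess within and Aquantile between arrays moved the median difference of all genes to 0.08, turned the split of calls over all genes from 1238 higher and 6054 lower to 3170 higher and 1838 lower, and left 2 members called, Stat3 and Socs3. The figure of member levels shows the values on which these counts rest.

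Within each dye, with 2 rats per group, the 5 called members were lower in CES without overlap. That outcome follows from their lack of overlap over all rats, so it is no separate check on the dyes. Only the size of the difference could vary between dyes. The log2 difference was −1.004 between Cy3 rats and −0.76 between Cy5 rats for Cntf, −1.13 and −0.61 for Il6st, −1.33 and −0.88 for Jak2, −2.46 and −1.74 for Stat3, and −1.35 and −1.26 for Socs3. Each was smaller in size between the Cy5 rats, which include CES replicate 2. Fitted by limma within 1 dye, these 5 members were called between Cy3 rats, where 4339 of all genes were called lower. Between Cy5 rats 0 members were called, and 2 genes in all.

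**Figure D1:**
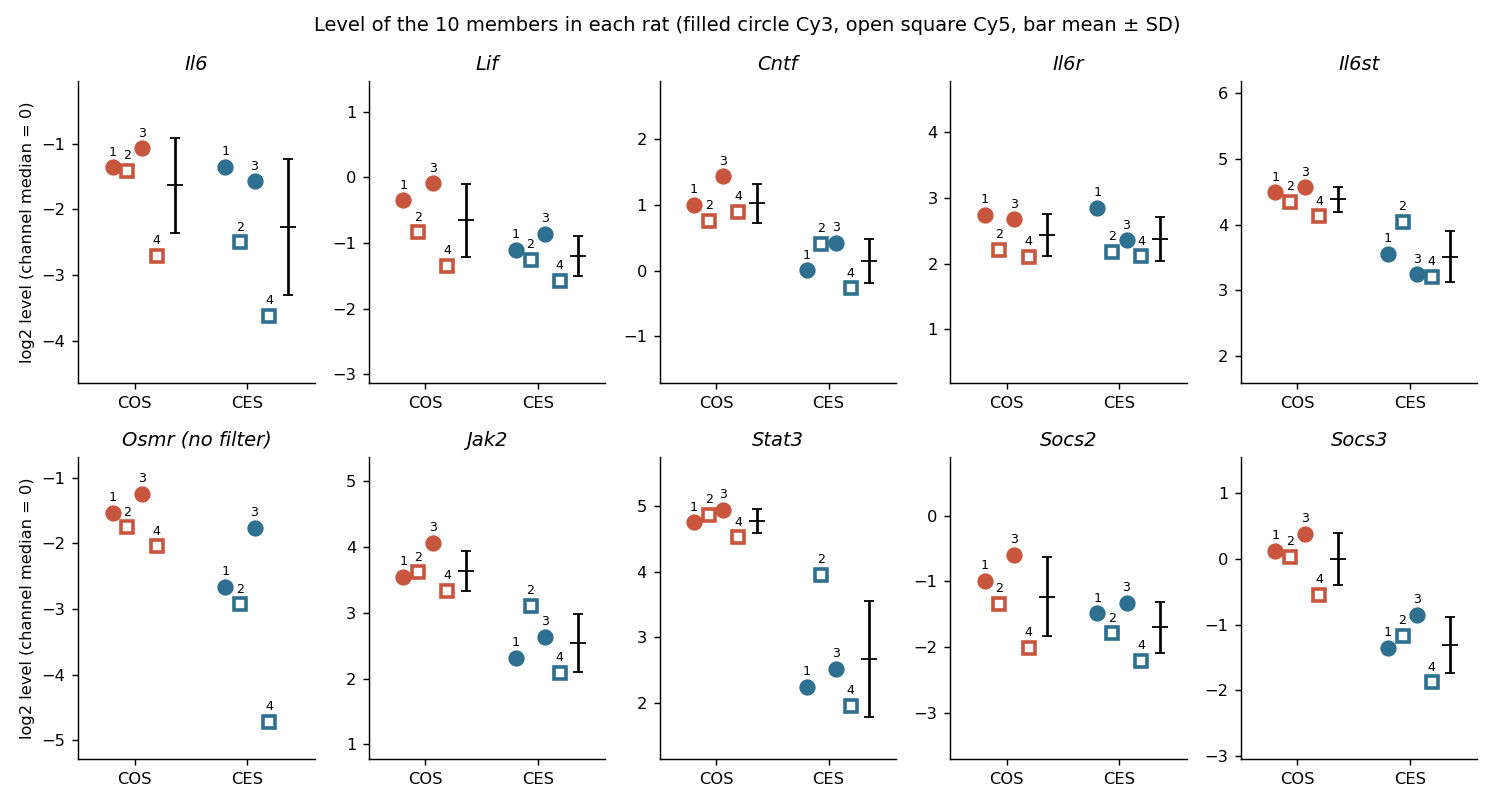
Log2 level of each member in each rat (y axis, 0 is the median of the channel; every panel spans the same number of log2 units) for COS and CES (x axis), with the replicate number above each point and the group mean ± SD (n = 4) as a bar. For Stat3 the COS rats sit between 4.53 and 4.94 and CES replicate 2, at 3.95, lies between them and the other CES rats. Osmr is drawn without the filter on valid spots and has no bar.

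Among the ligands, Cntf, a factor made by astrocytes and Schwann cells that supports motor and other neurons, was the member called. Its log2 level was 1.00, 0.76, 1.44 and 0.90 in COS replicates 1 to 4, and 0.01, 0.41, 0.42 and −0.27 in CES replicates 1 to 4. The lowest COS rat lay above the highest CES rat. The group means were 1.02 ± 0.29 in COS and 0.14 ± 0.33 in CES (SD, n = 4 each), a difference of −0.88 with an SE of 0.21 and a limma adjusted p of 0.0116. The 10 repeated spots of its probe differed by an SD of 0.20 to 0.37 within a channel. Without CES replicate 2 the difference was −1.04 (adjusted p = 0.00191). Leaving out COS replicate 3 ended the call (adjusted p = 0.0844), as did leaving out CES replicate 1 (0.0568), and it held under 13 of 24 alternatives.

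Lif, which was first described for its effect on leukemia cells and which is induced in glia by injury, was not called. It stood at −0.35, −0.83, −0.09 and −1.35 in the COS rats and at −1.10, −1.26, −0.86 and −1.58 in the CES rats. COS replicate 4 lay within the range of the CES rats. The difference was −0.54 (SE 0.19, 95% interval −0.97 to −0.11, limma adjusted p = 0.0526), and its interval is not adjusted for the number of genes. Lif passed the threshold when replicates of 1 number formed a block (limma adjusted p = 0.0456). The same held without a dye term (0.0435) and on the processed signal of the scanner software (0.0312). It also passed without CES replicate 2 (0.0225), CES replicate 3 (0.0377), CES replicate 4 (0.0377) or COS replicate 4 (0.0376). Over all alternatives its adjusted p ranged from 0.0225 to 0.824.

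Il6, the cytokine that names the family, was near background. Of its 10 identical spots, 2, 10, 0 and 0 were marked well above background in COS replicates 1 to 4 and 0, 1, 0 and 0 in CES replicates 1 to 4, and 2 spots were valid in all rats. Its foreground, averaged over the 10 spots, was 3.37 to 6.36 times the local background in COS and 1.69 to 2.94 times in CES. On the 2 spots the log2 levels were −1.36, −1.42, −1.07 and −2.71 in COS and −1.35, −2.50, −1.57 and −3.63 in CES, so the groups overlapped. The difference of −0.63 (SE 0.33, limma adjusted p = 0.172) was not called, and neither was that of −0.78 without CES replicate 2 (adjusted p = 0.0926). All 10 spots were valid in each COS rat, against 4, 6, 8 and 3 in CES replicates 1 to 4. Over the 10 spots, without the filter on valid spots, the difference was larger at −1.35 and was not called (limma adjusted p = 0.0581).

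The receptor chain Il6st, which encodes gp130, was lower in CES. Its levels were 4.50, 4.35, 4.57 and 4.13 in COS and 3.55, 4.05, 3.24 and 3.21 in CES. In this mean over 2 probes the groups did not overlap. The means were 4.39 ± 0.19 and 3.51 ± 0.39 (SD, n = 4 each), a difference of −0.87 (SE 0.22, limma adjusted p = 0.0153). The probes disagreed on CES replicate 2. Fitted alone, the probe shown above gave −1.29, without overlap, and CES replicate 2 was its lowest CES rat at 0.20. The other gave −0.85, and on it CES replicate 2 was the highest CES rat at 4.99 and lay above COS replicate 4 at 4.97. The third probe was not valid in all rats. Without CES replicate 2 the difference was −1.10 (adjusted p = 0.000778). The call ended on leaving out COS replicate 3 (adjusted p = 0.0902), CES replicate 1 (0.0594) or COS replicate 1 (0.0529).

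Il6r, the chain that binds interleukin-6 itself, did not separate the groups. It stood at 2.75, 2.21, 2.68 and 2.11 in COS and at 2.85, 2.18, 2.36 and 2.11 in CES. Both groups covered nearly the same range. The difference was −0.06 (SE 0.16, 95% interval −0.43 to 0.30, limma adjusted p = 0.794), and its sign turned under 9 of 24 alternatives, among them loess and quantile normalization. Osmr, which pairs with gp130 to bind oncostatin M, was valid in 4 COS rats and in 2 CES rats and was not tested. Its foreground was 3.12 to 5.18 times background in COS and 1.495 to 3.103 times in CES, and 2 COS rats and 1 CES rat had it well above background. Without the filter its log2 levels were −1.53, −1.76, −1.25 and −2.05 in COS and −2.66, −2.93, −1.77 and −4.72 in CES, and CES replicate 3 lay within the COS range.

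Jak2, a kinase bound to gp130 and to several other cytokine receptors, was lower in CES. Its levels were 3.55, 3.62, 4.06 and 3.34 in COS and 2.32, 3.11, 2.64 and 2.09 in CES. CES replicate 2 was again the highest of its group, and the groups did not overlap. The means of 3.64 ± 0.31 and 2.54 ± 0.44 (SD, n = 4 each) differed by −1.10 (SE 0.25, limma adjusted p = 0.0102), a level 2.15 times as high in COS. The spots of its probe, 10 in each channel, had an SD of 0.20 to 0.33. The difference was −1.35 without CES replicate 2 (adjusted p = 0.000478), while the call was lost without COS replicate 3 (0.0817) and without CES replicate 1 (0.0548). The call was also lost with channels scaled on the spots valid in all 8 rats, where the difference was −0.70 (limma adjusted p = 0.0623).

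Stat3, the factor through which gp130 signals to the nucleus, had the largest difference of the 9 members that could be compared. Its log2 level was 4.75, 4.86, 4.94 and 4.53 in COS replicates 1 to 4 and 2.25, 3.95, 2.52 and 1.96 in CES replicates 1 to 4. The 4 COS rats were close together, 3 CES rats lay far below them, and CES replicate 2 lay between. The means were 4.77 ± 0.18 in COS and 2.67 ± 0.88 in CES (SD, n = 4 each), and the difference of −2.10 had an SE of 0.37 and a limma adjusted p of 0.00501. This is a level 4.29 times as high in COS. With channels scaled on the spots valid in all 8 rats the difference was smaller, −1.70 (limma adjusted p = 0.0286).

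Both Stat3 probes were called lower. The probe shown above, with 1 spot, gave −2.15 (limma adjusted p = 0.00851), and on it CES replicate 2 at 3.404 lay just above COS replicate 4 at 3.352. The other, with 10 spots whose SD within a channel was 0.20 to 0.29, gave −2.10 (adjusted p = 0.00471) with no overlap. Without CES replicate 2 the difference was −2.57 (SE 0.18, adjusted p = 7.97e-06), a level 5.94 times as high in COS. Without COS replicate 3 it was −1.97 and no longer passed (adjusted p = 0.0539). The adjusted p ran from 7.97e-06 to 0.345 over the alternatives, and the call held in 21 of 24.

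Socs3, the inhibitor induced by Stat3, was lower in CES as well. It stood at 0.12, 0.03, 0.39 and −0.55 in COS and at −1.35, −1.17, −0.85 and −1.87 in CES. The groups did not overlap, and here CES replicate 2 lay among the other CES rats. The means of −0.0015 ± 0.39 and −1.31 ± 0.43 (SD, n = 4 each) differed by −1.31 (SE 0.22, limma adjusted p = 0.00458), a level 2.48 times as high in COS. Its single spot was 6.15 to 17.8 times background in COS and 3.00 to 6.89 times in CES, where 2 of 4 rats had it well above background. The difference was −1.46 without CES replicate 2 (adjusted p = 0.000523) and −1.22 without COS replicate 3, where it missed the threshold (0.0502). With channels scaled on the spots valid in all 8 rats the difference was smaller, −0.91 (limma adjusted p = 0.0221). The call held in 19 of 23 alternatives.

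Socs2, an inhibitor known mainly for restraining growth hormone signalling, was not called. It stood at −0.99, −1.34, −0.59 and −2.01 in COS and at −1.48, −1.79, −1.32 and −2.21 in CES. COS replicates 2 and 4 lay within the CES range. The difference was −0.47 (SE 0.21, 95% interval −0.93 to −0.01, limma adjusted p = 0.104), and it passed the threshold without CES replicate 2 (adjusted p = 0.0463).

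**Figure D2:**
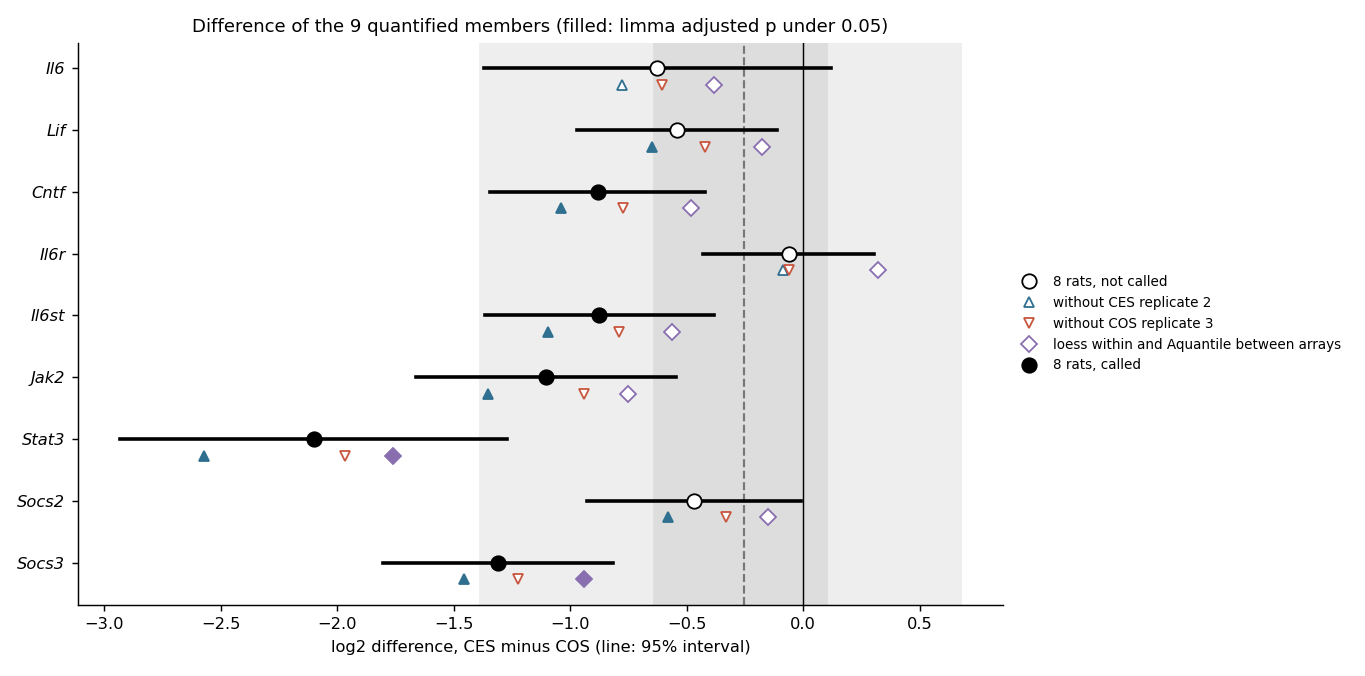
Log2 difference, CES minus COS (x axis), of the 9 members that could be compared (y axis) with its 95% interval, and below each the difference without CES replicate 2, without COS replicate 3 and after loess and Aquantile normalization; filled symbols have a limma adjusted p under 0.05. The dashed line is the all-gene median of −0.25 and the grey bands hold the genes from −0.64 to 0.10 and from −1.39 to 0.68. Stat3, at −2.10, lies outside the wider band.

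The other genes of the pathway were described from a list of 32, of which 30 were on the array and 27 could be compared. Of these 27, 12 were lower in CES by limma and 0 were higher, against 28.3% and 5.79% of all genes. The values of 7 were lower without overlap, against 19.8% of all genes. Their median difference was −0.40, against −0.25 over all genes. The 12 lower calls were 1 of 4 ligands, 1 of 4 receptors, 0 of 2 kinases, 4 of 5 STAT factors and 6 of 12 inhibitors. Without COS replicate 3 there were 3 calls, and 6 or 7 without COS replicates 1, 2 or 4 or CES replicate 1. Over all 21372 genes, lower calls were 932 without COS replicate 3 and 2493 to 5038 without 1 of the others, against 6054 in the main fit. After loess and Aquantile normalization 6 were called lower and 1 higher, against 1838 and 3170 of all genes.

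The largest of these differences was that of Clcf1, a ligand of the receptor that Cntf uses. It stood between 2.85 and 3.80 in COS and at −1.05, 1.93, −1.21 and −2.71 in CES, and 3 CES rats had it well above background. The difference was −4.11 (SE 0.78, limma adjusted p = 0.00585), and −5.16 without CES replicate 2. Lifr, the chain that joins gp130 to receive Lif and Cntf, was at 0.31, 0.45, −0.19 and −1.04 in COS and at −2.18, −1.53, −1.89 and −2.82 in CES. Its difference was −1.99 (SE 0.36, adjusted p = 0.00518), and −2.27 without CES replicate 2. It was well above background in 3 COS rats and 2 CES rats, and normexp background correction brought the difference to −0.88, which was not called (adjusted p = 0.199).

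Of the STAT factors, Stat5a and Stat5b, which mediate prolactin and growth hormone signals, were lower in CES by −1.76 (limma adjusted p = 0.00399) and −1.38 (0.00554). Of the phosphatases, which remove phosphate from kinases and STAT proteins, Ptpn6 differed by −1.94 (adjusted p = 0.00712), Ptpn2 by −1.67 (0.00378) and Ptpn1 by −0.55 (0.0484). Without CES replicate 2 the differences were −2.03 for Stat5a, −1.66 for Stat5b, −2.45 for Ptpn6, −1.91 for Ptpn2 and −0.68 for Ptpn1. Stat5b was well above background in 2 of 4 CES rats and stood at −0.68 with normexp (adjusted p = 0.334). Without COS replicate 3 the calls of Clcf1 (adjusted p = 0.0575), Stat5b (0.0568), Ptpn6 (0.0643) and Ptpn1 (0.185) were lost. Ptpn1 lost its call on leaving out any rat but CES replicate 2, and with replicates of 1 number as a block (0.0632).

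The list of 18 genes that Stat3 is widely described to raise had 17 that could be compared. Of these, 15 were lower in CES by limma and 0 were higher, against 28.3% and 5.79% of all genes. The values of 14 were lower without overlap, against 19.8% of all genes. The median difference of the 17 was −2.73, against −0.25 over all genes. The list was written with earlier results of these data known, and its genes also respond to other signals, so the count describes the list and is no separate evidence on Stat3. Without COS replicate 3 there were 8 calls, without CES replicate 1 there were 11, and after loess and Aquantile normalization 10. Over all 21372 genes, lower calls under these settings were 932, 2493 and 1838, against 6054 in the main fit.

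Ccl2, a chemokine that draws monocytes, was lower in CES. It stood at 6.46, 7.08, 5.96 and 6.16 in COS and at −2.05, 4.32, −0.63 and −3.25 in CES. All 10 of its spots were well above background in every COS rat, against 1, 10, 1 and 0 in CES replicates 1 to 4, so the levels of the 3 low CES rats are near background. CES replicate 2 was far above the other CES rats and below all COS rats. The difference as measured, on 3 spots valid in all rats, was −6.82 (SE 1.26, limma adjusted p = 0.00547). Timp1, an inhibitor of matrix proteases, was at 7.72, 8.24, 7.86 and 7.70 in COS and at 1.81, 6.99, 3.91 and 1.86 in CES. Its difference was −4.23 (SE 0.92, adjusted p = 0.00885), and −5.39 without CES replicate 2.

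The other targets named by the same rule covered several functions. Among regulators of transcription, Bcl3, a partner of NF-kappaB, differed by −4.54 (limma adjusted p = 0.00436), Myc by −2.73 (0.00390), Cebpd by −2.68 (0.00387) and Junb by −2.39 (0.00374). Among genes of reactive astrocytes, the protease inhibitor Serpina3n differed by −3.28 (0.0275) and the intermediate filament Vim by −2.76 (0.0101). The 2 targets that were not called were Gfap, the filament of astrocytes, at −1.19 (0.0618, overlapping), and A2m, a protease inhibitor of plasma, at −0.11 (0.733), both named after their values were seen. Hmox1, which degrades heme, differed by −3.22 (0.00699), and Icam1, an adhesion molecule for leukocytes, by −2.99 (0.00362). Without CES replicate 2 the differences were −5.54 for Bcl3, −3.24 for Myc, −3.18 for Cebpd, −2.69 for Junb, −4.51 for Serpina3n, −3.62 for Vim, −4.05 for Hmox1 and −3.50 for Icam1. The calls of Ccl2 (0.0571), Hmox1 (0.0600), Timp1 (0.0842), Vim (0.0789) and Serpina3n (0.110) were lost without COS replicate 3. Those of Timp1 (0.0507), Vim (0.0536) and Serpina3n (0.0793) were also lost without CES replicate 1, and Serpina3n fell to −1.92 without CES replicate 4 and lost its call on leaving out any rat but CES replicate 2 or 4.

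**Figure D3:**
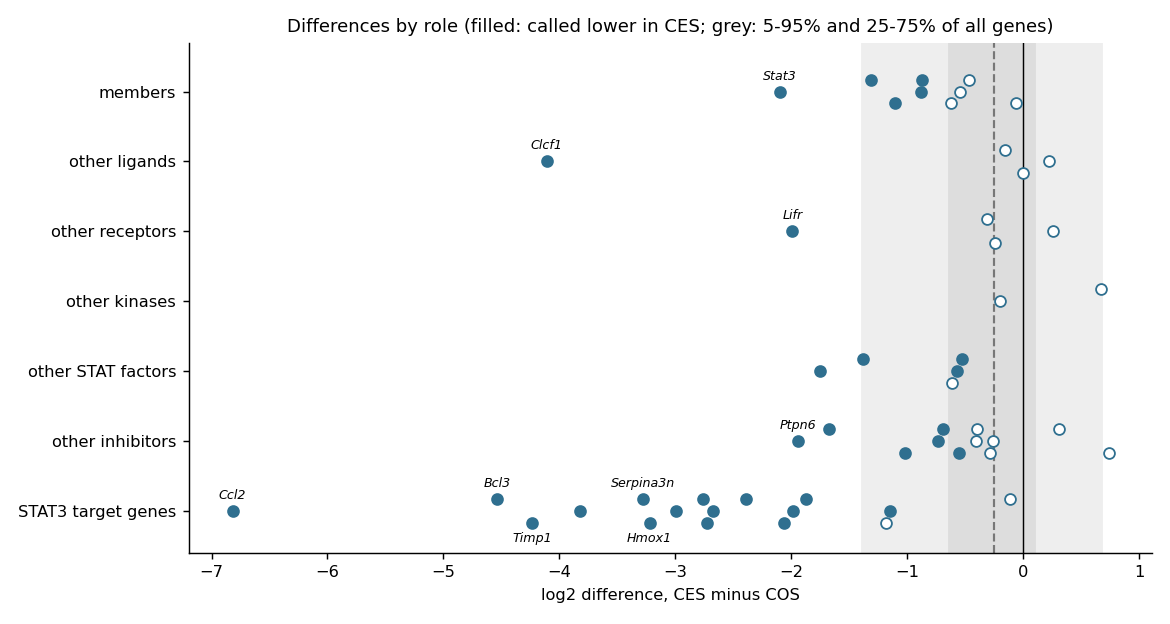
Log2 difference, CES minus COS (x axis), of the members, the other pathway genes by role and the Stat3 targets (y axis), 1 point a gene, filled where limma called it lower. The grey bands and the dashed line are as in the plot of member differences. The targets run from −6.82 to −0.11, and 15 of 17 are filled.

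CES replicate 2 was the highest of the CES rats more often in the targets than in the other lists. This held in 15 of 17 targets, in 3 of 9 members (Jak2, Stat3 and, in the mean over its probes, Il6st), in 9 of 27 other pathway genes and in 16.4% of all genes. CES replicate 2 lay above the other 3 CES rats and below all 4 COS rats in 13 of 17 targets, 3 of 9 members, 7 of 27 other pathway genes and 2460 of 21372 genes. Without it 7 of 9 members (5 as before, with Lif and Socs2), 13 of 27 other pathway genes and 16 of 17 targets were called lower, against 32.8% of all genes.

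**Figure D4:**
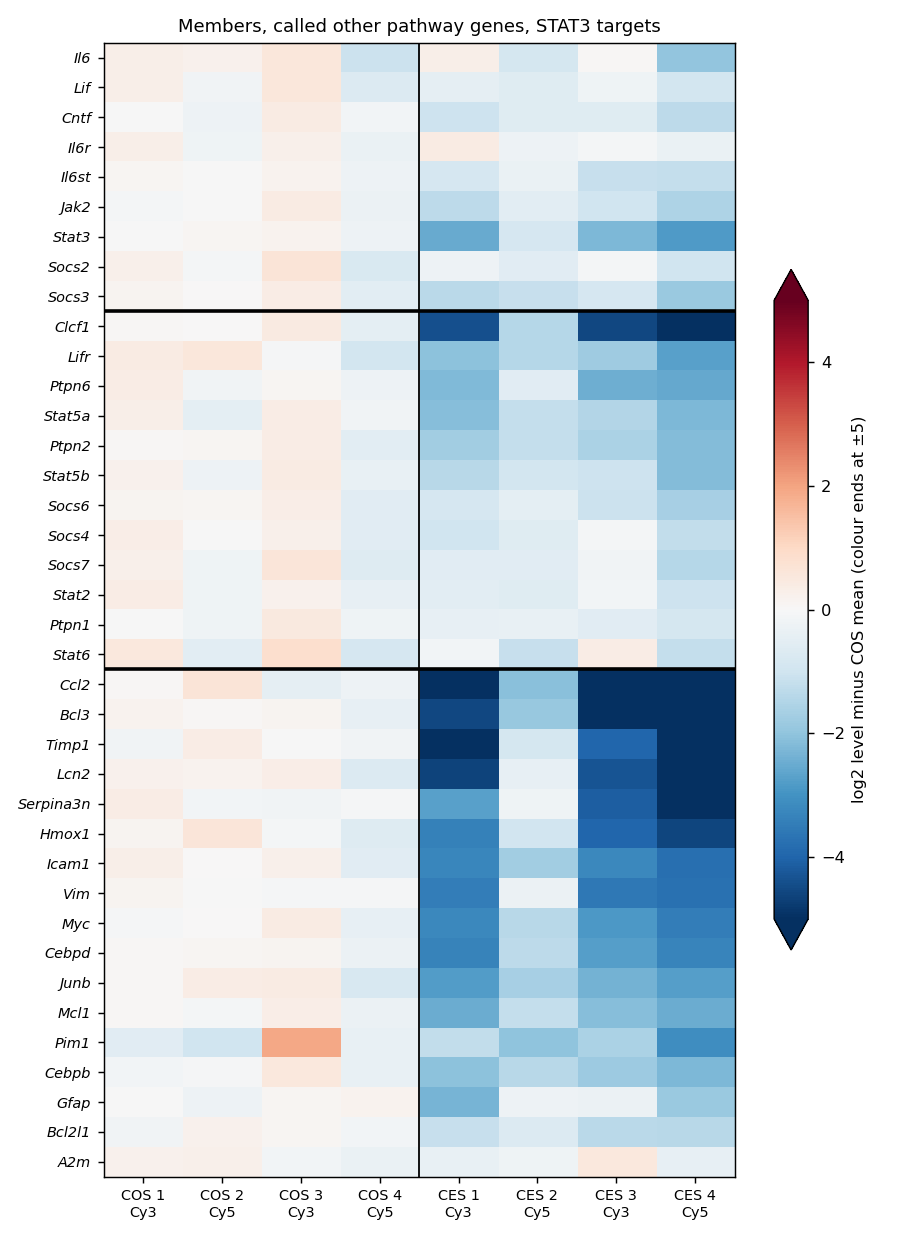
Log2 level minus the COS mean of the same gene (colour, ending at ±5) in each rat (x axis, with its dye) for the 9 members, the 12 other pathway genes called lower and the 17 Stat3 targets (y axis, the 3 lists separated by lines). The 4 COS columns are pale, and the column of CES replicate 2 is paler than those of the other CES rats in most targets.

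Of 46 marker genes of cell types, 38 could be compared. Limma called 9 lower and 7 higher in CES, against 28.3% and 5.79% of all genes, and 22 were not called. Of the 4 granule cell markers quantified, 3 were called lower and 0 higher, and all 3 CA pyramidal cell markers were called higher. Among these, Tdo2 of granule cells was well above background in 0 rats, and Fibcd1 of pyramidal cells in 0 COS and 2 CES rats. Of 4 neuronal markers 1 was called higher, and 0 of 5 oligodendrocyte and 0 of 3 choroid plexus markers were called. The summed linear level of the 3 blood leukocyte markers quantified, of 6, ran from 59.6 to 109 in COS and from 7.72 to 26.5 in CES, where CES replicate 2 was the highest. Lyz2, a lysozyme of myeloid cells that microglia can also express, made up 91.1% to 99.6% of this sum and was called lower (−2.54, limma adjusted p = 0.00374), while Ptprc (−0.51, 0.165) and Cd3e (0.23, 0.648) were not called. The 3 leukocyte markers that could not be compared were S100a8 and S100a9, each well above background in 3 COS rats and 1 CES rat, and Ccr2, in 0 rats. The single genes in this paragraph are named after their values were seen. The sum of the 4 endothelial markers quantified, of 5, ran from 25.7 to 40.4 in COS and from 15.8 to 28.4 in CES, with overlap. Fitted singly, 3 of these 4 were called lower and 0 higher. Microglial markers, all 6 quantified, overlapped in their sum with 28.3 to 41.8 in COS and 24.2 to 34.0 in CES. Singly, they did not go 1 way, with 2 called lower, 1 called higher and 3 not called. The sum of the 6 astrocyte markers, of which Gfap is also on the target list, overlapped with 171 to 192 in COS and 153 to 232 in CES. Among the astrocyte markers Aldh1l1 (1.23) and Gja1 (1.27) were called higher in CES. The others, Gfap (−1.19), Slc1a3 (−0.07), Aqp4 (0.04) and Slc1a2 (0.31), were not called. The part of these cells in the results on the members and the targets was not tested.

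Genes whose levels over the 8 rats were most like those of 3 members are given as a description. For Stat3 these were Pvr, Pmepa1 and Niban2 (Pearson's r of 0.999, 0.999 and 0.998). For Socs3 they were Glb1, the transcript listed as TC614272 and Polr1a (0.996, 0.996 and 0.995), and for Il6st LOC678801 and the transcripts listed as A_44_P883659 and TC588675 (0.997, 0.995 and 0.994). The 8 points share the 2 groups, the 2 dyes and the scaling of each channel.

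STAT factors are known to bind the palindrome TTCNNNGAA, where N is any base. On the RefSeq table of GRCr8, in windows from 250 bases before to 50 after each gene start, 8 of the 10 members had a window and 0 of these held the motif on either strand, against 8.87% of 33469 windows. This says only that the letters are not in these windows.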

How the data were processed

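Each rat's total RNA was labelled with 1 dye, and each array held 2 rats of 1 group. Per the labels, the authors deposited output of Agilent Feature Extraction 10.7.3.1, with mean, median and background intensity per spot and channel, and log2 values that match median signal less background in log2 but for a constant per channel. No spot was saturated.

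Background medians were subtracted from mean signals, each channel was scaled to the median of its valid spots, a gene's spots valid in every rat were averaged, and the result was taken to log2. Names came from RefSeq accessions where these matched (19474 spots) and otherwise from the files. limma 3.58.1 (R 4.3.3, statmod 1.5.0) tested CES against COS, two-sided, with dye as a term, array as a random block, since arrays lie within groups, and Benjamini-Hochberg adjustment over 21372 genes at 0.05. The median SE of a difference was 0.20, and 4 arrays limit the precision. The fit was run on simulated data with independent noise for each rat. These held no shift over all genes and no rat like CES replicate 2, so they do not cover those features. Figures used Python 3.11.15, pandas 2.3.3 and matplotlib 3.10.9.

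Same-numbered rats shared deviations (correlations of 0.21 to 0.34), but so did rats of the same dye with another number (0.21 to 0.44). The labels do not say what a number marks, and a replicate block was an alternative.

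The members, lists and alternatives were chosen with earlier results of these data known. Named are all members, the other pathway genes and targets called without overlap, at most 10 a list by size, and the 3 genes most like each of Stat3, Socs3 and Il6st.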

Additional observations from a re-analysis of the deposited data

Results flagged for a closer look

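Among 52 groups of 4 rats, which are the COS and CES values of 26 members and named genes, 2 held a rat far from the other 3 by Dixon's criterion, and chance flags about 1 in 20 groups. In both it was CES replicate 2. Its level of Vim was 7.05, against 3.88 for the nearest and 3.58 for the lowest of the other CES rats (gap over range 0.914). Its level of Ptpn6 was 4.07, against 2.44 and 2.11 (0.833). Stat3, at 3.95 against 1.96 to 2.52, did not meet the criterion.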

How the results depend on the processing

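Among the members, Stat3 was called under 21 of 24 alternatives and Socs3 under 19 of 23. Members called lower numbered 1 with normexp background correction, 2 after loess and Aquantile, with each channel scaled on the spots common to all rats, after centring on the median of all genes, without the filter on valid spots and on the deposited log2 table, 3 after quantile normalization, and 0 by the methods' t-test after adjustment and between Cy5 rats alone. Other pathway genes called lower numbered 3 with normexp, 6 under loess, quantile, the common spots, centring and the deposited table (each with 1 higher), 7 without the filter, 5 at a foreground of 3 times background, 6 among spots well above background in all rats, 7 between Cy3 rats and 0 by the t-test or between Cy5 rats, where the targets also had 0. Over all genes, lower and higher calls were 461 and 126 with normexp, 1838 and 3170 with loess, 2226 and 3059 with quantile normalization, 1720 and 3352 over the common spots, 1981 and 3211 after centring, 1936 and 3285 on the deposited table, 2797 and 421 without the filter, 0 and 0 by the t-test and 2 and 0 between Cy5 rats. Lower calls were 2835 at 3 times background, and higher calls 750 between Cy3 rats. At an unadjusted p under 0.05 the t-test gave 6114 genes and 5 members, and limma between Cy5 rats 2936 genes. The sign of Il6r turned, to 0.075 with normexp, 0.021 with the processed signal, 0.32 with loess, 0.31 with quantile normalization, 0.34 over the common spots, 0.31 after centring, 0.056 at 3 times background, 0.27 on the deposited table, and it ran from −0.15 to 0.057 (without CES replicate 3) on leaving out 1 rat. Leaving out 1 rat gave 0 to 7 members lower, 3 to 14 other pathway genes lower and 0 to 1 higher, 8 to 16 targets lower, and 932 (without COS replicate 3) to 7029 (without CES replicate 3) genes lower and 262 to 1860 higher. With the replicate number as a block, 6 members, 11 other pathway genes and 15 targets were called lower, and among members and named genes it changed only the calls of Lif and Ptpn1. The causes of these changes were not tested. Low signal limits Il6, Osmr and Socs2, which at most 4 of 8 rats had well above background.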
